A study of Mus musculus with 6 samples.

Results

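The genes described here encode the phagocyte NADPH oxidase and the proton channel that works beside it, and they comprise Cybb, Cyba, Ncf1, Ncf4 and Hvcn1. They were chosen by function, as the rows of the count table with these 5 symbols, out of 55291 genes listed. All 5 had enough counts to be tested, as had 9815 of the 18659 genes with at least 1 count. They were followed in bone marrow-derived macrophages (BMDMs), primary macrophages grown from mouse bone marrow with L929-conditioned medium, a source of the macrophage growth factor M-CSF, for 7 days. The WT group comprised BMDMs of 3 wild-type C57BL/6 mice (libraries WT1, WT5 and WT6), and the PYK2 KO group comprised BMDMs of 3 C57BL/6 mice that lack the tyrosine kinase PYK2 (libraries KO2, KO3 and KO4). The knockout is present in every cell of the animal and was therefore already in place while the macrophages developed. Both groups were cultured alike and received no stimulus beyond the growth medium, so the values describe resting macrophages. The age and sex of the mice and the C57BL/6 substrain of each group are not given in the labels.

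The phagocyte oxidase passes electrons from NADPH in the cytosol across a membrane to oxygen, which yields superoxide inside the phagosome or outside the cell. The catalytic subunit gp91phox (Cybb, also called NOX2) and its partner p22phox (Cyba) form the membrane-bound flavocytochrome, whereas p47phox (Ncf1) and p40phox (Ncf4) wait in the cytosol and move to the membrane with the GTPase Rac once the cell is activated. Each electron that leaves the cytosol leaves positive charge behind, and the voltage-gated proton channel Hv1 (Hvcn1) lets protons follow, which keeps the oxidase running.

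The count of Ptk2b, which encodes PYK2, was 737, 701 and 568 in WT and 71, 64 and 69 in PYK2 KO, and its RNA was 11.2% of the WT level (log2 fold change -3.15 with an SE of 0.099, adjusted p = 1.03e-11 in edgeR's quasi-likelihood test). Libraries held between 2857097 and 3917207 counts. Levels are given as CPM, the count relative to a fixed library total, scaled between libraries with the TMM method, and a difference was called at an adjusted p under 0.05 over all tested genes. Of these, 25 (0.255%) were called, 11 higher and 14 lower in PYK2 KO, 592 (6.03%) had an unadjusted p under 0.05, and in 1005 (10.2%) the libraries of the genotypes did not overlap. The median over all tested genes was a log2 fold change of 0.0019. All 10 macrophage markers were tested, among them Csf1r, Adgre1 and Cd68, and none was called by edgeR, DESeq2 or limma or had an unadjusted p under 0.05. In bulk RNA, fewer cells of a type and less RNA per cell cannot be told apart.

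None of the 5 genes was called by edgeR's quasi-likelihood test, against 0.255% of all tested genes. Ncf4 came nearest and ranked 27th of 9815 genes by p-value, and Cybb ranked 223rd. These 2 of 5 genes had an unadjusted p under 0.05, both higher in PYK2 KO, against 6.03% of all tested genes in either direction. Ncf4 was also the only one of the 5 whose WT and PYK2 KO libraries did not overlap, against 10.2% of all tested genes. Cyba, Ncf1 and Hvcn1 had intervals that reached across 0, and the median of the 5 log2 fold changes was 0.03. By other tests on the same genes, Ncf4 alone was called by edgeR's likelihood ratio test, by its exact test and by DESeq2, which called 0.458%, 0.438% and 0.224% of all tested genes, and no member was called by limma voom.

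**Figure D1:**
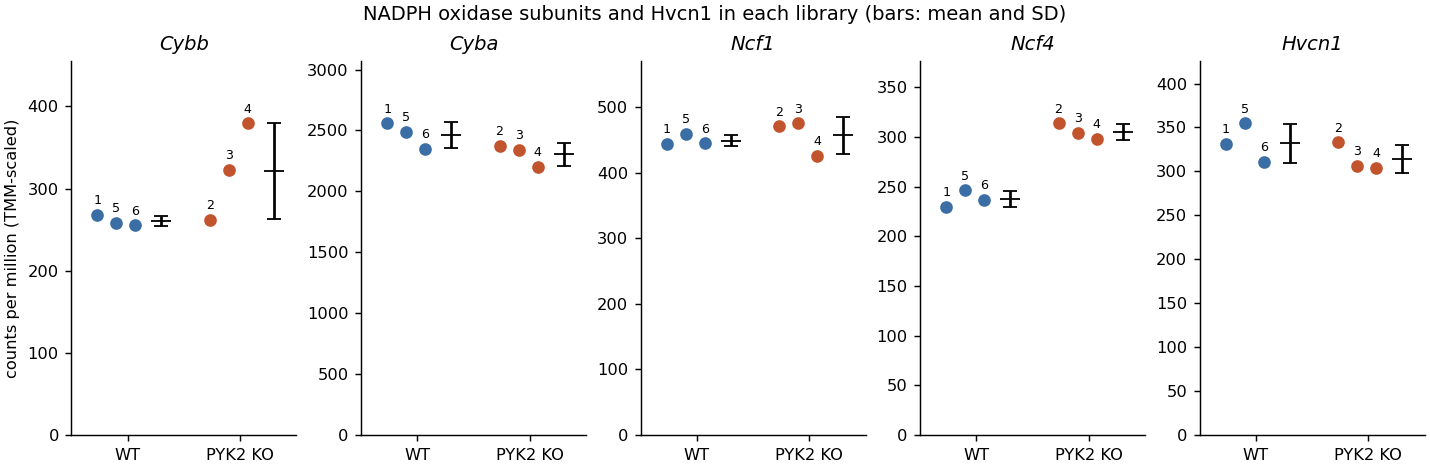
Level of each gene in each library in TMM-scaled CPM, on axes that start at 0. Points are single mice, numbered by library, and black bars give the mean and SD of 3 mice per genotype; Ncf4 is the gene whose WT points (229.8 to 246.3 CPM) lie wholly below the PYK2 KO points (298.0 to 313.8 CPM), while 1 of the PYK2 KO points of Cybb lies among the WT points.

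Cybb lies on the minus strand of the X chromosome at chrX:9435252-9487771 (GRCm38, GENCODE annotation), and no other annotated gene overlaps it. Its RNA carries the catalytic subunit, the one that holds the heme groups and binds NADPH. Its promoter is shown because Cybb was the member with the widest spread relative to its mean among PYK2 KO mice, and because PU.1, the transcription factor that sets the myeloid lineage, is a known regulator of the gene. RefSeq (GRCm38.p6) places the window at chrX:9469295-9469574 on the minus strand, from 250 bases before to 30 bases after a transcription start, which is inside the longer GENCODE span. Capitals mark the sequence CCAAT, which binds NF-Y, and TTCCTC, which is the reverse complement of the PU.1 core GAGGAA.
Cybb promoter: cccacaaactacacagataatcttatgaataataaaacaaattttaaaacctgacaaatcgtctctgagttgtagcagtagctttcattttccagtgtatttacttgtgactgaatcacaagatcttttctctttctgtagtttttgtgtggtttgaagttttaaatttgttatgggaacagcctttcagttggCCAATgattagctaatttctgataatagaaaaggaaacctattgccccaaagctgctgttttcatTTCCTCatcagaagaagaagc
The CCAAT match begins 56 bases before the start on the strand of the gene, and the GAGGAA match begins at base 10 after the start on the opposite strand. The motifs do not overlap each other. Over windows of 250 bases before to 50 after the start, searched on both strands, 37.4% of 32851 RefSeq promoters held CCAAT and 28.3% held GAGGAA. The same windows of Cyba and Ncf1 held neither sequence, and those of Ncf4 and Hvcn1 were not analysed here. A match of letters says nothing about binding in these cells.

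The counts of Cybb were 1049, 923 and 728 in WT1, WT5 and WT6, and 816, 932 and 1273 in KO2, KO3 and KO4. On the CPM scale these corresponded to 267.9, 258.4 and 255.2 in WT and 261.8, 322.8 and 379.4 in PYK2 KO. The WT mice were close together, KO2 lay within their range, and KO3 and KO4 lay above it. The mean was 260.5 ± 6.62 CPM (SD, n = 3) for WT, compared with 321.3 ± 58.8 CPM (SD, n = 3) for PYK2 KO. The log2 fold change was 0.30 with an SE of 0.110, a 1.23-fold higher level with a 95% interval from 1.05 to 1.45, and edgeR's quasi-likelihood test gave an unadjusted p of 0.0146 and an adjusted p of 0.641. The exact two-sided permutation test over the 6 libraries gave p = 0.2, where 0.1 is the smallest value that 3 against 3 libraries allow.

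The Cybb difference rested on which PYK2 KO mouse was included. Without KO4 the log2 fold change was 0.16 (unadjusted p = 0.120), and without KO2 it was 0.43 (unadjusted p = 0.000491, adjusted p = 0.105 by edgeR's quasi-likelihood test). The spread of Cybb in PYK2 KO was 18.3% of the mean, against a counting error of 3.19%, whereas in WT the spread was 2.54% with a counting error of 3.36%. The counting error takes each count as an independent molecule, and the comparison over 3 mice per genotype is a description without a test.

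Other transcripts set the same PYK2 KO mice apart. B2m, the light chain of MHC class I, had 971.2, 262.8 and 212.8 CPM in WT1, WT5 and WT6 and 523.3, 1046 and 1521 CPM in KO2, KO3 and KO4, so KO3 and KO4 were also its highest libraries and KO2 was lower. WT1 differed from the other WT mice in B2m but not in Cybb, which was at 267.9 CPM in WT1. The summed level of 12 neutrophil markers was 305 to 412 CPM in WT and 337, 487 and 545 CPM in KO2, KO3 and KO4. Of those markers 8 were tested, none was called by edgeR, DESeq2 or limma, and 3 had an unadjusted p under 0.05, against 6.03% of all tested genes, namely S100a9 (0.85 on the log2 scale), Mmp8 (0.44) and Mpo (1.19). Of the other tested markers, S100a8 (0.10) and Ngp (0.19) lay above 0 and Camp (-0.26), Ltf (-0.09) and Csf3r (-0.15) lay below it. Mpo had only between 4 and 21 counts per library. All 12 had at least 1 count, but Ly6g, the defining surface marker of mouse neutrophils, had at most 1 count in any library. The part of these transcripts in the Cybb result was not tested.

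Cyba, at chr8:122424776-122432930 on the minus strand, encodes p22phox, the membrane partner that stabilises gp91phox and docks p47phox. Its counts were 10015, 8876 and 6690 in WT and 7405, 6755 and 7374 in PYK2 KO. The CPM values were 2558, 2485 and 2345 in WT1, WT5 and WT6 and 2376, 2340 and 2198 in KO2, KO3 and KO4. The PYK2 KO values reached lower than the WT values, but the groups overlapped. The means of 2462 ± 108 and 2304 ± 94.1 CPM (SD, n = 3 each) gave a log2 fold change of -0.10 with an SE of 0.070, and the 95% interval of the fold ran from 0.844 to 1.04 (adjusted p = 0.935, edgeR's quasi-likelihood test). With counts of this size the counting error was 1.09% in WT and 1.18% in PYK2 KO, below the spread between mice of 4.39% and 4.08%. The gene Gm20388 overlaps its exons on the opposite strand, and stretches of 50 bases of Cyba transcripts recur in transcripts of 8 other genes, so its level is uncertain to the extent that such reads were assigned to it.

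Ncf1, at chr5:134220053-134229625 on the minus strand, encodes p47phox, the organiser that carries the cytosolic complex to p22phox once it is phosphorylated. It had counts of 1736, 1639 and 1269 in WT and 1467, 1372 and 1426 in PYK2 KO. This amounted to 443.3, 458.8 and 444.8 CPM in WT and 470.6, 475.2 and 425.0 CPM in PYK2 KO. The PYK2 KO mice lay on both sides of the WT mice. The means were 449.0 ± 8.53 and 457.0 ± 27.8 CPM (SD, n = 3 each), and the log2 fold change was 0.03 with an SE of 0.080 (adjusted p = 0.993, edgeR's quasi-likelihood test). The 95% interval of the fold ran from 0.904 to 1.15. The sign of the difference turned when KO3 was left out (-0.0047). The gene Gtf2ird2 overlaps exon sequence of Ncf1 on the opposite strand, and 1 other gene, Zhx3, shares a stretch of 50 bases with Ncf1 transcripts.

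Ncf4, at chr15:78244801-78262580 on the plus strand, encodes p40phox, which binds the lipid phosphatidylinositol 3-phosphate on phagosomes and holds the cytosolic complex there. No other gene overlaps it and none shares a stretch of 50 bases with its transcripts. Its counts were 900, 880 and 676 in WT1, WT5 and WT6 and 978, 877 and 1000 in KO2, KO3 and KO4. The CPM values were 229.8, 246.3 and 236.9 in WT and 313.8, 303.8 and 298.0 in PYK2 KO. Every PYK2 KO mouse lay above every WT mouse, and the gap between the groups exceeded the range within either of them. The means were 237.7 ± 8.27 and 305.2 ± 7.95 CPM (SD, n = 3 each). The fold was 1.28 with a 95% interval from 1.14 to 1.44 (log2 fold change 0.36, SE 0.079), with an unadjusted p of 0.000343 and an adjusted p of 0.125 in edgeR's quasi-likelihood test. The exact permutation test gave p = 0.1, the smallest value it can reach here.

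Whether Ncf4 counted as called depended on the test and on the filter, while the size of its difference hardly moved. Its adjusted p was 0.0413 in edgeR's likelihood ratio test, 0.0455 in its exact test, 0.0202 in DESeq2 and 0.0151 in edgeR's quasi-likelihood test without a filter on low counts, a fit in which 0.852% of 18659 genes were called. The other 6 settings left it above 0.05. Across all 10 settings the log2 fold change ran from 0.35 to 0.37, and from 0.34 to 0.39 when each library was left out in turn, with an adjusted p between 0.168 and 0.381 by edgeR's quasi-likelihood test in the latter fits. The spread of Ncf4 between mice was 3.48% in WT and 2.61% in PYK2 KO, near the counting errors of 3.52% and 3.25%. Ncf4 was highest in KO2, the PYK2 KO mouse whose sum of neutrophil markers (337 CPM) lay within the WT range and whose B2m was lowest of the PYK2 KO mice. The summed level of the 10 macrophage markers also did not overlap, with 29348 to 30084 CPM in the WT libraries and 30537 to 31523 CPM in the PYK2 KO libraries, and Lyz2 (log2 fold change 0.08) and Itgam (0.12) were each higher in every PYK2 KO library. The part of all these transcripts in the Ncf4 result was not tested.

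**Figure D2:**
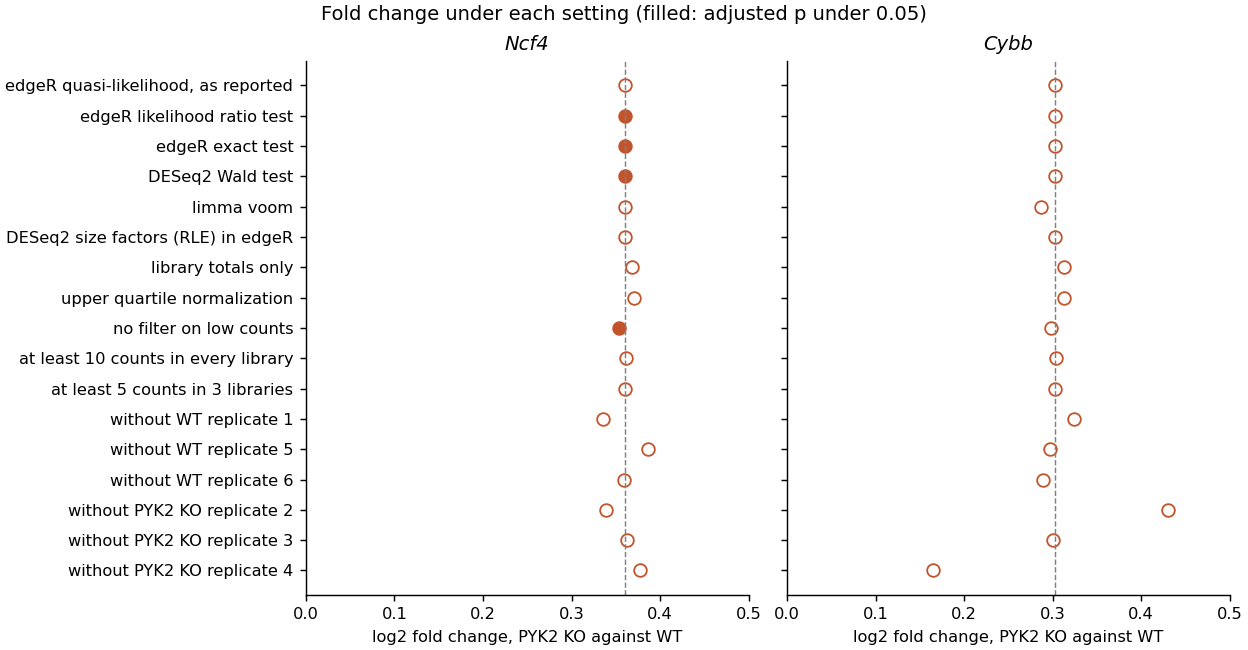
Log2 fold change of Ncf4 and Cybb, PYK2 KO against WT, under the reported fit, 10 other settings and 6 fits that leave out 1 library each; filled points have an adjusted p under 0.05 and the dashed line marks the reported value. Ncf4 stays between 0.34 and 0.39 throughout, whereas Cybb runs from 0.16 without KO4 to 0.43 without KO2.

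Hvcn1, at chr5:122206804-122242297 on the plus strand, encodes the voltage-gated proton channel. It had 1297, 1267 and 886 counts in WT and 1038, 884 and 1020 counts in PYK2 KO. The CPM values were 331.2, 354.6 and 310.5 in WT and 333.0, 306.2 and 304.0 in PYK2 KO. KO2 lay among the WT mice, and KO3 and KO4 lay just below the lowest of them. The means were 332.1 ± 22.1 and 314.4 ± 16.1 CPM (SD, n = 3 each), with a log2 fold change of -0.08, an SE of 0.085 and a 95% interval of the fold from 0.835 to 1.07 (adjusted p = 0.950, edgeR's quasi-likelihood test). Tctn1 overlaps it on the opposite strand and had at most 12 counts in any library.

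The proportions between the transcripts were described within each library, where scaling cancels, without a test. The ratio of Ncf4 to Ncf1 CPM was 0.518, 0.537 and 0.533 in WT1, WT5 and WT6 and 0.667, 0.639 and 0.701 in KO2, KO3 and KO4. The log2 ratio averaged -0.92 ± 0.03 in WT and -0.58 ± 0.07 in PYK2 KO (SD, n = 3 each), a difference of 0.34, and the groups did not overlap. The difference in this ratio stayed between 0.30 and 0.37 when any library was left out. Neither gene was called by edgeR's quasi-likelihood test.

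The membrane subunits gave a less even picture. The ratio of Cyba to Cybb was 9.55, 9.62 and 9.19 in WT and 9.07, 7.25 and 5.79 in KO2, KO3 and KO4. All PYK2 KO values were below the WT values, KO2 only slightly so. The log2 ratio differed by -0.38, from 3.24 ± 0.04 in WT to 2.86 ± 0.32 in PYK2 KO (SD, n = 3 each), and the difference ranged from -0.54 to -0.22 when a library was left out. The log2 ratios of Ncf1, Ncf4 and Hvcn1 to Cybb differed by -0.26, 0.07 and -0.37 and overlapped between the genotypes. With a library left out these differences ran from -0.42 to -0.08 for Ncf1, from -0.09 (without KO2) to 0.22 (without KO4) for Ncf4, which changed sign, and from -0.55 to -0.21 for Hvcn1. KO4 had the lowest ratio to Cybb for each of the other 4 genes. It was also the library with the highest Cybb level and with the lowest levels of Cyba, Ncf1 and Hvcn1.

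**Figure D3:**
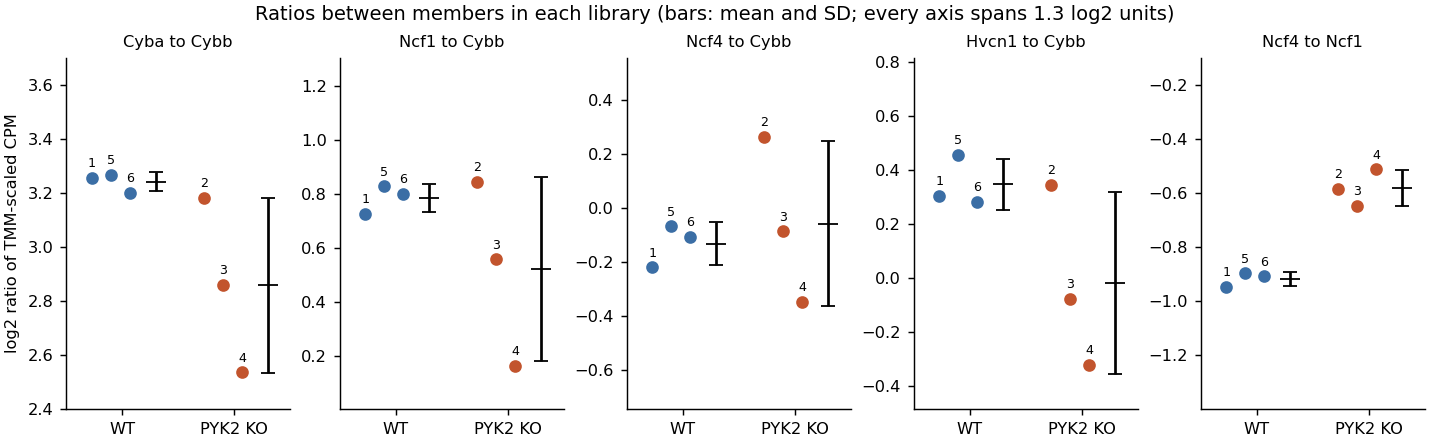
Log2 ratio of the CPM of 2 genes in each library, with the same span of 1.3 log2 units on every axis. Points are single mice numbered by library and bars give the mean and SD of 3 mice; the Ncf4 to Ncf1 ratio separates the genotypes (-0.92 and -0.58 on average), and the ratios to Cybb spread most among PYK2 KO mice.

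The GTPases and the chaperone that work with the complex were close to their WT levels. Rac1 and Rac2, the GTPases that switch the oxidase on, had log2 fold changes of -0.03 (SE 0.086) and -0.12 (SE 0.114). Rap1a, a GTPase that copurifies with the flavocytochrome, was at -0.04 (SE 0.103), and Cybc1, the chaperone of the flavocytochrome, was at -0.00043. None of these 4 tested genes was called or had an unadjusted p under 0.05 in edgeR's quasi-likelihood test, and DESeq2 and limma called none. The groups overlapped for each of them. The signs of Rac1 and Rap1a turned when single libraries were left out.

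Genes that activate the oxidase were tested for 18 of 20 listed. None was called by edgeR's quasi-likelihood test, by DESeq2 or by limma, and 2 had an unadjusted p under 0.05, both higher in PYK2 KO, against 6.03% of all tested genes. Pla2g4a, cytosolic phospholipase A2, which releases the arachidonic acid that promotes assembly, had 14.0, 17.4 and 18.2 CPM in WT and 19.6, 20.4 and 25.3 CPM in PYK2 KO (log2 fold change 0.41, SE 0.173, adjusted p = 0.742, edgeR's quasi-likelihood test). Its groups did not overlap, but its counts were between 52 and 85 per library. Prkcb, a protein kinase C that phosphorylates p47phox, had 131.3, 110.0 and 104.8 CPM in WT and 122.6, 132.7 and 151.7 CPM in PYK2 KO (log2 fold change 0.23, SE 0.104, adjusted p = 0.799, edgeR's quasi-likelihood test), and its groups overlapped. Pik3cg, the phosphoinositide 3-kinase that acts below chemoattractant receptors, had a log2 fold change of 0.21 (SE 0.110). Prkcb was at 0.14 without KO4 (unadjusted p = 0.214) and Pik3cg at 0.12 without WT5. The unadjusted p of Prkcb was also above 0.05 without WT5, WT6 or KO3, and that of Pla2g4a without WT1 or KO4. For these 3 genes KO4 or KO3 was the highest library, and the median of the 18 was 0.06, with 10 above and 8 below 0. That median was 0.034 without WT1 or without KO2 and 0.039 without WT6.

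Other NADPH oxidases gave almost no reads. None of the 9 listed genes could be tested. Nox3, Nox4, Noxa1, Duox1, Duox2, Duoxa1 and Duoxa2 had no count in any library, which allows up to 3 counts in each, Nox1 had at most 1, and Noxo1 had at most 14. Cybb was therefore the only catalytic subunit of this enzyme family that was measurable at this depth among those listed.

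Transport of charge and protons beside Hvcn1 was represented by 9 tested genes of 10. None was called by edgeR, DESeq2 or limma or had an unadjusted p under 0.05 in edgeR's quasi-likelihood test, although 8 of the 9 lay below 0, with a median of -0.13 against 0.0019 for all tested genes. Without KO4 that median was -0.03. The V-ATPase subunits Atp6v0d1 and Atp6v1a, part of the pump that acidifies phagosomes, had means of 526.3 ± 24.4 and 690.0 ± 45.8 CPM for WT, compared with 480.2 ± 4.89 and 630.4 ± 26.5 CPM for PYK2 KO (SD, n = 3 each). Their log2 fold changes were -0.13 (SE 0.078) and -0.13 (SE 0.081), and for both the libraries of the genotypes did not overlap. The chloride-proton exchanger Clcn5 was at -0.18 (SE 0.134), and its groups overlapped. Without WT1, Clcn5 was at -0.07 and Atp6v1a at -0.07.

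Among the enzymes that supply NADPH, 14 of 15 were tested and 1 was called, against 0.255% of all tested genes, namely Nnt, the transhydrogenase that makes NADPH in mitochondria. Its counts were 179, 177 and 143 in WT and 65, 66 and 85 in PYK2 KO, and its level was 45.7, 49.5 and 50.1 CPM in WT and 20.9, 22.9 and 25.3 CPM in PYK2 KO. Every PYK2 KO mouse was well below every WT mouse (log2 fold change -1.07, SE 0.130, adjusted p = 0.000536, edgeR's quasi-likelihood test), and the call held under all settings and with any library left out. Part of Nnt is deleted in the C57BL/6J substrain but not in C57BL/6N, and the substrain of the sequenced mice is not given in the sources used here, whose methods name C57BL/6 OlaHsd for wild-type mice of another cross. The genotype and the substrain cannot be told apart, for Nnt or for any other difference between the groups given here. The cytosolic enzymes of the pentose phosphate pathway, the main supply for the oxidase, were not called: G6pdx, its entry enzyme, had a log2 fold change of -0.0036 and Pgd one of 0.02. The median of the 14 genes was -0.0048.

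Enzymes that remove superoxide and peroxide were tested for 11 of 12, and none was called by edgeR, DESeq2 or limma or had an unadjusted p under 0.05 in edgeR's quasi-likelihood test. Sod1, the cytosolic superoxide dismutase, was at -0.10 (SE 0.078), Sod2, the mitochondrial one, at 0.10 (SE 0.085), and thioredoxin Txn1 at 0.11 (SE 0.086). The median of the 11 tested genes was -0.02. Of 12 listed regulators of oxidase transcription, 11 were tested, and again none was called by these tools or had an unadjusted p under 0.05 in edgeR's quasi-likelihood test, with a median of -0.03. Cebpa, a myeloid C/EBP factor, was at 0.22 (SE 0.115), Spi1, which encodes PU.1, at -0.18 (SE 0.115), and Irf1 at -0.12 (SE 0.126). Single libraries decided much of these values, as Cebpa was at 0.089 without KO2, Spi1 at -0.039 without KO4 and Irf1 between -0.24 without KO2 and -0.050 without KO4. The level of Spi1 was lowest in KO4 (279.3 CPM, against 364.9 to 433.9 CPM in WT), the library in which Cybb was highest. In KO3, where Cybb was also above its WT range, Spi1 was at 381.7 CPM, within the WT range of Spi1. The part of Spi1 in the Cybb result was not tested.

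**Figure D4:**
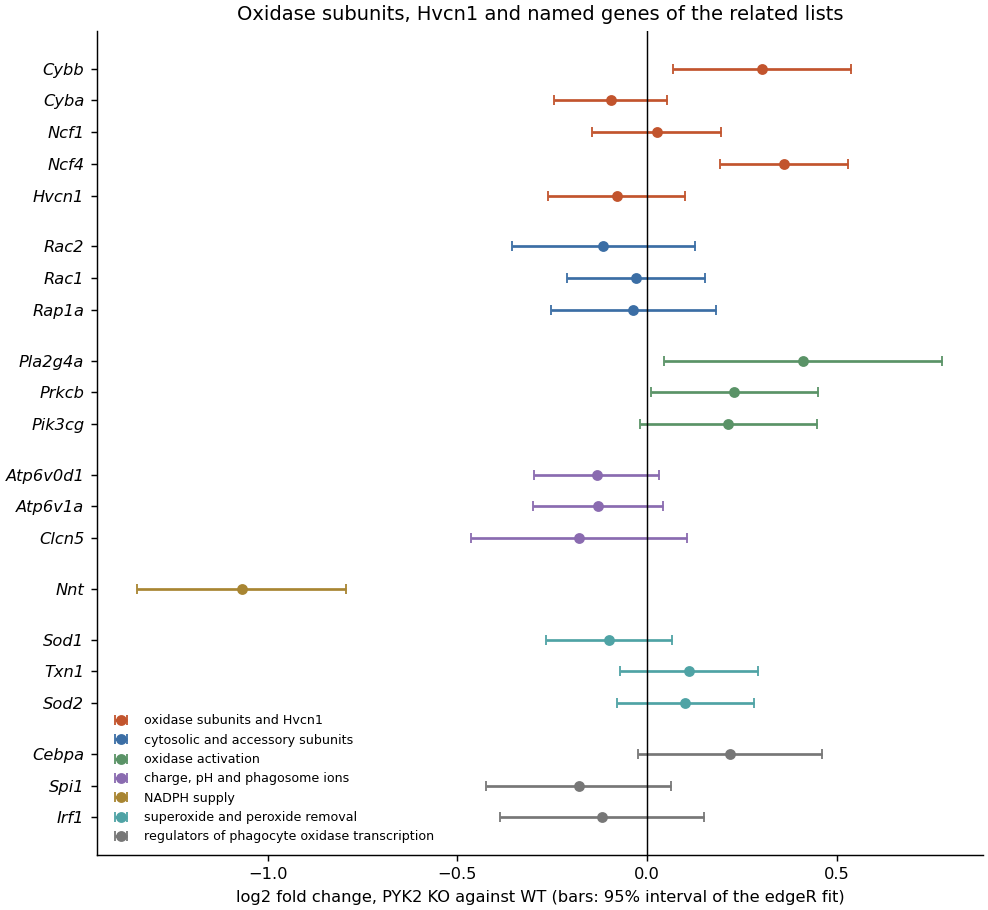
Log2 fold change of the 5 genes and of named genes of the related lists, PYK2 KO against WT, with 95% intervals of the edgeR fit, coloured by list. Ncf4, Cybb, Pla2g4a and Prkcb have intervals above 0, Nnt lies far below 0 at -1.07, and the other intervals include 0.

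The neighbouring genes were compared because nearby genes can share regulatory DNA. Of the 30 protein-coding genes within 3 places on either side of the 5 genes, 16 were tested. Of the tested neighbours, 2 had an unadjusted p under 0.05, against 6.03% of all tested genes. A single one was called by edgeR's quasi-likelihood test, against 0.255% of all tested genes, namely Csf2rb2, which lies 19.9 kb from Ncf4 and encodes the receptor beta chain specific to interleukin 3. It had 180.8, 147.8 and 132.1 CPM in WT and 100.1, 112.9 and 102.5 CPM in PYK2 KO, so it was lower in every PYK2 KO mouse, opposite in sign to Ncf4 (log2 fold change -0.55, SE 0.108, adjusted p = 0.0451). This call did not hold without WT1 (log2 fold change -0.42, adjusted p = 0.111, edgeR's quasi-likelihood test) and was lost with any other library left out except WT6, as it was in 3 of the 10 other settings. Csf2rb, the common beta chain 63.2 kb from Ncf4, was at -0.23 (SE 0.094, unadjusted p = 0.0250, adjusted p = 0.718, edgeR's quasi-likelihood test). Without WT1 Csf2rb was at -0.14 (unadjusted p = 0.154), and its unadjusted p also rose above 0.05 without KO2 or KO3. These receptor genes are close paralogs, and reads may have been split between them. Beside Cybb, Dynlt3 was the only tested neighbour, with a log2 fold change of 0.31 (SE 0.180) and at most 53 counts. None of the 12 tested neighbours of Cyba, Ncf1 and Hvcn1 had an unadjusted p under 0.05.

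**Figure D5:**
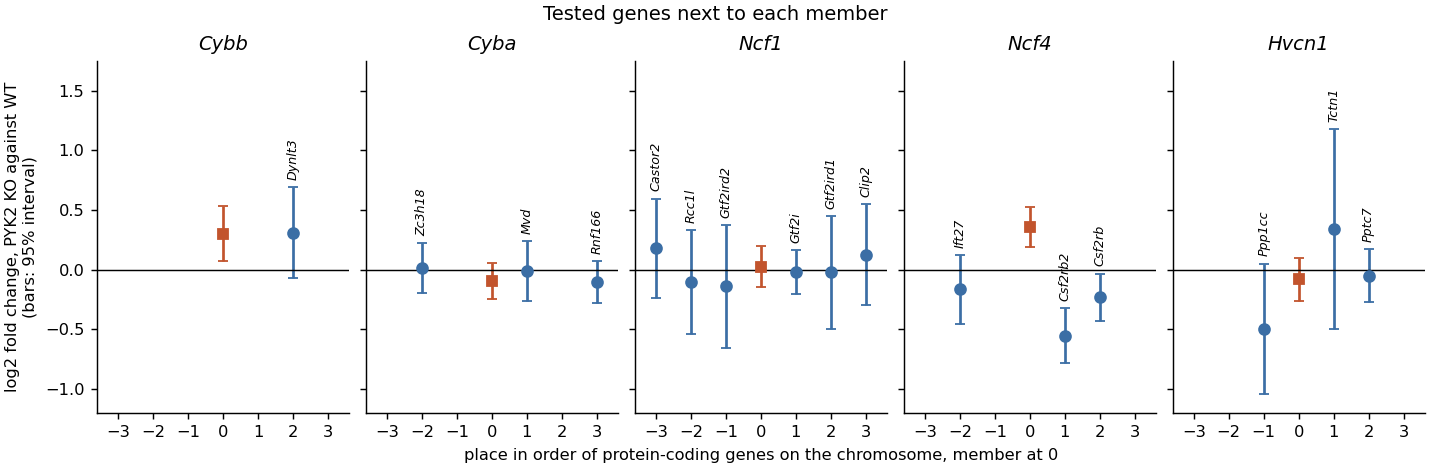
Log2 fold change, PYK2 KO against WT, of the tested protein-coding genes up to 3 places from each gene (circles) and of the gene itself (square at 0), with 95% intervals. Beside Ncf4, which lies at 0.36, Csf2rb2 and Csf2rb lie below 0 at -0.55 and -0.23; the intervals of the other neighbours include 0.

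The genes with the most similar pattern were found by the root mean square difference of centred log2 CPM over the 6 libraries, a description without a test. For Ncf4 they were Ccl6, Ap1ar and Ube2z, at distances of 0.047, 0.051 and 0.054, where the median gene was at 0.241. Ccl6, a macrophage chemokine, was itself called (log2 fold change 0.38, adjusted p = 0.0485, edgeR's quasi-likelihood test), though its adjusted p was above 0.05 with each library left out in turn. For Cybb they were Cd84, Pnisr and Copb2, at 0.049, 0.056 and 0.056, against a median of 0.264. Cyba was nearest to Nbeal2, Clta and Grina, Ncf1 to Tapbp, Mrps9 and Sh3bgrl3, and Hvcn1 to Pnpla2, Dhrs3 and Cuedc2, at distances of 0.016 to 0.025. None of these genes was another oxidase subunit. Cyba and Hvcn1 were nearest to each other among the 5 genes, at 0.053, whereas Cybb and Ncf4 were 0.186 apart.

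Defining transcripts of several other cell types had no count. The B cell genes Cd79a, Ms4a1 and Pax5 had no count, although Ighm and Cd79b were detected and brought the B cell sum to between 369.5 and 401.3 CPM in WT and between 336.3 and 379.5 CPM in PYK2 KO. The dendritic cell genes Flt3, Zbtb46, Xcr1, Clec9a and Siglech had no count, nor had Epx and Ccr3 of eosinophils, 4 of 5 T and NK cell genes or Dcn of fibroblasts. The other listed genes of these 4 cell types, among them 4 of 5 fibroblast genes and 2 of 4 eosinophil genes, had between 1 and 5 counts in their highest library. The sum of 4 monocyte genes was 17.9 to 21.2 CPM in WT and 20.9 to 26.2 CPM in PYK2 KO. Of these, Ly6c2, which marks classical monocytes, had 8.70 ± 1.81 CPM for WT, compared with 13.4 ± 0.723 CPM for PYK2 KO (SD, n = 3 each), and its libraries did not overlap between the genotypes, as was the case for Ncf4. The log2 fold change of Ly6c2 was 0.64, with an unadjusted p of 0.00891 and an adjusted p of 0.591 in edgeR's quasi-likelihood test. The part of this marker in the Ncf4 result was not tested.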

How the data were processed

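RNA of BMDMs from 3 WT and 3 PYK2 KO mice, 1 library per mouse, was sequenced by a bulk form of MARS-seq, which reads the 3′ ends of transcripts. The deposited values are unnormalized counts for each gene, which the authors made with the UTAP pipeline. The submitters' processing notes name cutadapt, STAR and the build mm10. Versions, the annotation, the use of strand and the collapsing of molecular identifiers are not given in the sources used here. Columns were matched to mice by name.

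The counts were filtered (filterByExpr), scaled by TMM and fitted on genotype by the quasi-likelihood method of edgeR 4.0.16 (R 4.3.3), and p-values were adjusted over 9815 genes by the Benjamini-Hochberg method, with a threshold of 0.05. The F statistic of each gene gave its standard error. Intervals cover 95%. CPM and ratios were computed from the counts. DESeq2 1.42.0, limma 3.58.1 (voom), other tests, normalizations and filters, and each library left out were alternatives. The steps were tested on simulated data.

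The genes and lists were chosen with earlier results of these data known. Named were the 5 genes, Ptk2b, from each list every called gene or else up to 3 with the smallest p-values, Rac1 and Rac2, neighbours with an unadjusted p under 0.05, the 3 genes most similar to each member, and cell type markers. B2m, Dynlt3, G6pdx, Pgd and Cybc1 were named after their values were seen. Some genes of the lists are not reported here. BC017643 on the subunit list is an older name of Cybc1, which was analysed under its current name. Positions came from GENCODE M21 (GRCm38, the same assembly as mm10) and promoters from RefSeq, which covered 3 of the 5 genes.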

Additional observations from a re-analysis of the deposited data

How the results depend on the processing

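No paired analysis was possible because the library numbers differ between the genotypes (1, 5 and 6 in WT, 2, 3 and 4 in PYK2 KO). Over 10 other settings, Cybb, Cyba, Ncf1 and Hvcn1 kept their direction and stayed uncalled. Ncf4 kept its direction and was called by edgeR's likelihood ratio and exact tests (log2 fold change 0.36 in each), by DESeq2 (0.36) and without a filter on low counts (0.35). With each library left out, Ncf4 ran from 0.34 to 0.39, Cybb from 0.16 to 0.43, Cyba from -0.13 to -0.06, Hvcn1 from -0.12 to -0.03 and Ncf1 from -0.0047 to 0.075, where the lowest value, without KO3, is reversed. Among other genes, Rac1 ran from -0.086 to 0.052 (reversed without WT1) and Rap1a from -0.090 to 0.058 (reversed without WT6 and, at 0.028, without KO2), and the cause was not tested. The number of called genes, 25, was 45 in the likelihood ratio test, 43 in the exact test and 159 without a filter, each time with all 25 included, 20 to 25 in the other settings, and 14 (without KO4) to 34 (without WT1) with a library left out, 15 of them without WT5 or without KO2. The count of called genes in each list did not change under any setting run, which for the other NADPH oxidases were 2, with other filters. The median for NADPH supply changed sign with library totals (0.0023) and upper quartile scaling (0.0044). The median for oxidase activation was 0.036 without a filter. With a library left out the list medians changed sign for NADPH supply (-0.029 to 0.038), superoxide and peroxide removal (-0.058 to 0.041) and regulators of transcription (-0.034 to 0.00094). Also with a library left out, Rac2 fell in size to -0.052 (without KO4), Sod1 to -0.062 (without KO2), Sod2 to 0.043 (without WT1) and Txn1 to 0.047 (without WT5). With 3 mice per genotype the intervals of Cyba, Ncf1 and Hvcn1 do not exclude small changes, and the other NADPH oxidases had at most 14 counts.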
